A study of Cucumis sativus with 12 samples.

Results

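Class III peroxidases and NADPH oxidases were followed in the stigma and style of cucumber (Cucumis sativus), the parts of the pistil that receive pollen and carry its tubes. Genes were taken whose Swiss-Prot name begins with peroxidase, or names a cationic or anionic peroxidase or a respiratory burst oxidase homolog (RBOH), and whose counts over the 12 libraries summed to at least 30. This gave 57 of the 24345 genes in the deposited table: 47 class III peroxidases, 9 NADPH oxidases and 1 gene, Csa3G878810, named OVEREXPRESSOR OF CATIONIC PEROXIDASE 3 (OCP3), which is a homeodomain protein and not a peroxidase. A further 22 genes matched by name but held under 30 counts, and 16 of those held none.

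RNA from flowers at anthesis, the opening of the flower, was sequenced from 4 genotypes with 3 biological replicates each. These were wild type (WT), a Csspt-/- mutant (Csspt), a Csalc-/- mutant (Csalc) and the CssptCsalc-/- double mutant. CsSPT and CsALC are named after SPATULA and ALCATRAZ, bHLH transcription factors of carpel and fruit development in Arabidopsis. Cultivar, mutant alleles, lines and flowers per library are not given in these sources. Whole stigma and style was taken, so fewer cells of a type and less RNA per cell cannot be told apart.

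Class III peroxidases are secreted, haem-containing enzymes that use hydrogen peroxide to oxidise phenolic compounds, which joins monolignols into lignin and cross-links wall proteins and pectin-bound phenolics. Under other conditions they generate reactive oxygen species and loosen the wall. RBOH proteins are plasma membrane NADPH oxidases that make superoxide outside the cell, which is converted to the hydrogen peroxide that peroxidases consume. Calcium, calcium-dependent protein kinases and ROP GTPases control their activity. In pistils, stigmas of many plants hold reactive oxygen species and stigma-specific peroxidases, and RBOHs in the pollen tube itself maintain tip growth in Arabidopsis.

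Libraries held 32155631 to 37986853 counts. Csalc replicate 3 stood apart: its log2 CPM correlated at 0.810 to 0.856 with the other libraries, which correlated at 0.927 or more with each other. Results are therefore given with 12 libraries, for a fit of 11 libraries without Csalc replicate 3, called the 11-library fit, or for both. A member given as called in the 11-library fit was not called with 12 libraries unless that is stated. In comparisons that do not hold Csalc, leaving Csalc replicate 3 out changes only the shared estimate of the spread and the genes tested, not the values compared. Of the marker lists, that of stigma and carpel (33 genes, 2 at 0 counts throughout) summed to 959 to 980.4 FPKM in WT and 927 to 956 in the double mutant. Its pattern took every gene named Agamous-like MADS-box protein. Most of the WT sum came from MADS2 (Csa4G126990, 299 to 320.4 FPKM), MADS4 (Csa6G095270, 258 to 267) and MADS1 (Cucumis_sativus_newGene_725, 136 to 161). The sum is therefore no measure of stigma and carpel content. HEC3 (Csa6G483450), a factor of stigma and transmitting tract development in Arabidopsis, was at 34.0, 45.2 and 48.0 FPKM in WT, whereas both genes named HEC1 were listed at 0 there, and no Swiss-Prot name was STIG1 or CRABS CLAW. Pollen markers (4 genes) summed to at most 1.72 FPKM in any library. Csalc replicate 3 stood apart in marker sums too. Its green tissue markers (18 genes) summed to 242 FPKM, against 1442 to 3389 in the other libraries. The stigma and carpel list summed to 1412 FPKM there, against 838 to 1007. The reason was not tested. A gene named SPATULA, Csa2G356640, had 19.6 to 21.0 FPKM in WT, 18.9 to 20.9 in Csspt, 5.87 to 12.2 in Csalc and 8.44 to 13.2 in the double mutant. No gene carried the name ALCATRAZ, so these values do not check the labels.

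Most of the peroxidase RNA came from a few genes. By mean WT level, 10 of the 47 peroxidases reached 10 FPKM (fragments scaled to transcript length and library size, comparable between genes), 9 lay between 1 and 10, and 28 lay under 1. The 6 most abundant peroxidases made up 71.1% to 83.9% of the summed peroxidase FPKM of a library. That sum was 541, 412 and 487 FPKM in WT, 546, 484 and 561 in Csspt, 658, 532 and 1102 in Csalc, and 832, 705 and 765 in the double mutant. The double-mutant libraries were all above the WT and Csspt libraries, and Csalc replicate 3 was above all others. Few genes shaped the sum. Mean FPKM went from 22.7 in WT to 161 in the double mutant for Peroxidase 10 (Csa6G490230) and from 30.9 to 179 for Peroxidase 21. It went from 63.9 to 9.37 for Peroxidase 43 and from 69.3 to 19.8 for Peroxidase 2 (Csa4G285760). The higher sum is therefore no rise of the family as a whole. The summed NADPH oxidase level was 74.8, 63.6 and 77.0 FPKM in WT and 99.6, 89.0 and 104 in the double mutant, without overlap, against 69.0, 55.9 and 52.0 in Csspt and 113, 84.8 and 63.4 in Csalc.

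In the double mutant against WT, Peroxidase 10 (Csa6G490230) and the NADPH oxidases RBOHH (Csa6G301070) and RBOHA (Csa4G050170) rose with all 12 libraries (edgeR's quasi-likelihood test, p-values adjusted by Benjamini-Hochberg over all tested genes, threshold 0.05). No member fell. These 3 of 54 tested members (5.56%) stood against 3.77% of all tested genes called up and 3.41% called down. DESeq2 called 13 members (background 14.5% in either direction). At an unadjusted p under 0.05 by edgeR there were 17. For such unadjusted counts, here and below, the share of all tested genes is not given. They are thus no result about the members, and each background is the share called at the adjusted threshold. The median log2 fold change was 0.44 over the 54 members and 0.03 over all tested genes. In the 11-library fit 16 of 55 tested members rose (29.1%) and 4 fell (7.27%), and the background was 19.2% up and 16.8% down. All 3 members called with 12 libraries were among these, and so were all 13 called by DESeq2. A fit of the WT and double-mutant libraries alone called 20 of 48 tested members (background 36.1% in either direction), 18 of them the same as in the 11-library fit. In 22 of the 54 members (40.7%) every double-mutant library was above every WT library, against 33.7% of all tested genes, and in 4 (7.41%) every one was below, against 17.5%. The members called in the 11-library fit alone are named below with their values known.

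**Figure D1:**
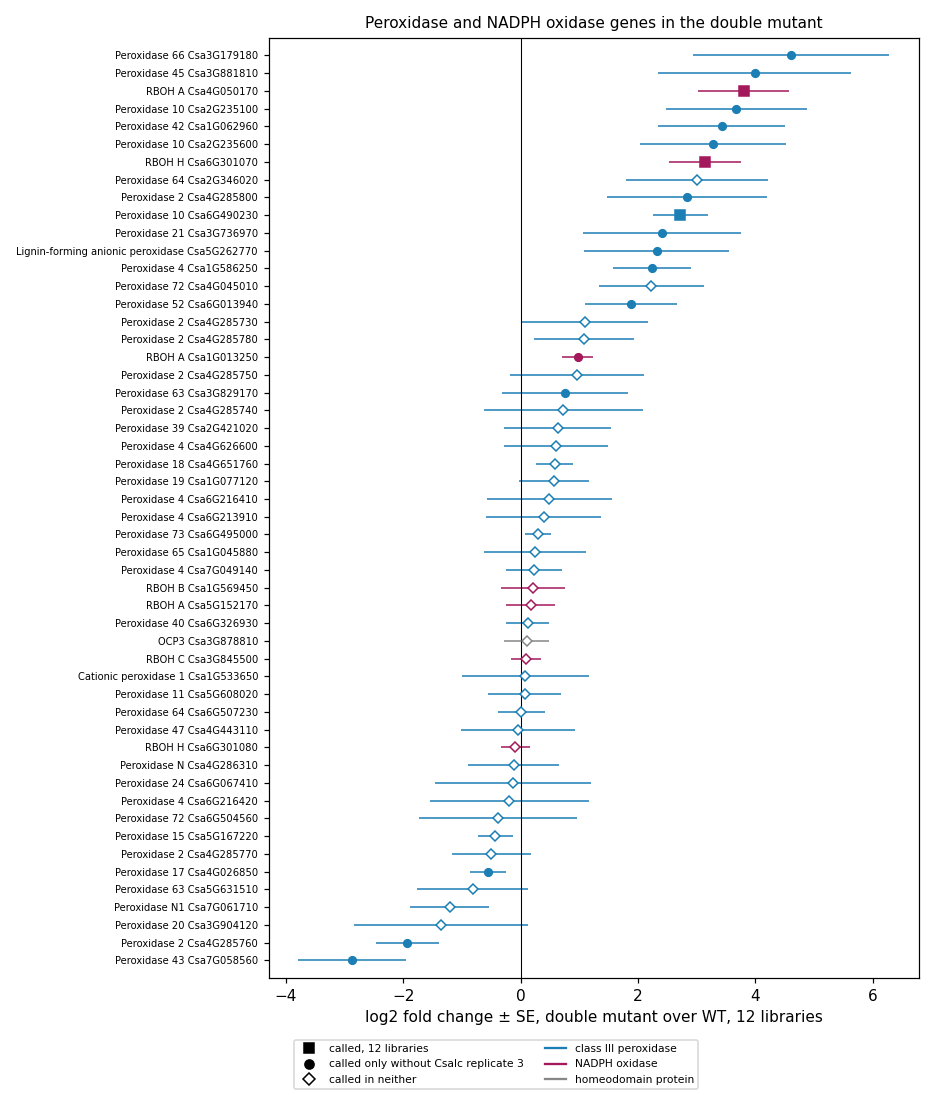
Log2 fold change of the double mutant over WT for 52 tested members (x axis; bars are ± SE, 12 libraries), ordered by size. Squares mark the 3 members called with 12 libraries, filled circles those called only without Csalc replicate 3, and open diamonds those called in neither; RBOHE Csa5G529950 and Peroxidase 51 Csa2G406630, with a compared group at 0 counts, are not drawn.

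Of the NADPH oxidases, which make superoxide, the 3 most abundant were not called between WT and the double mutant, while scarcer ones rose there. The gene of highest level, RBOHC (Csa3G845500), had 36.3, 33.3 and 43.6 FPKM in WT, 31.9, 25.4 and 21.8 in Csspt, 49.9, 26.0 and 33.7 in Csalc, and 43.5, 41.2 and 45.3 in the double mutant. It carries the name of a potato oxidase. All Csspt libraries were below those of WT and of the double mutant, but the difference from WT was not called (log2 fold change -0.58 ± 0.26 SE, adjusted p = 0.659 by edgeR, and 0.152 in the 11-library fit). The difference between double mutant and WT was 0.09 ± 0.26 (adjusted p = 0.866).

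RBOHA (Csa5G152170), named for the potato RBOHA of basal hydrogen peroxide production, had 28.1, 20.0 and 23.9 FPKM in WT and 18, 18.9 and 17.7 in Csspt. It had 49.0, 43.2 and 14.6 in Csalc and 27.5, 24.3 and 35.4 in the double mutant. Csalc replicates 1 and 2 were the highest of all libraries and replicate 3 the lowest. The gene rose in Csalc against WT in the 11-library fit (log2 fold change 0.91 ± 0.17, adjusted p = 0.017 by edgeR) and was higher in Csalc than in Csspt (1.38 ± 0.17, adjusted p = 0.0142). The double mutant was above Csspt (0.63 ± 0.16, adjusted p = 0.0257) and below Csalc (-0.75 ± 0.17, adjusted p = 0.0216). With all 12 libraries none of these 4 differences was called, and in the 11-library fit the Csalc values rest on 2 libraries. It was the 1 member called between the single mutants in that fit, where 0.247% of all genes were called up and 0.252% down. With 12 libraries 0 of 54 members were called between them by edgeR (background 0.0212% up and 0.0424% down), and DESeq2 called 2 (background 2.07%). At an unadjusted p under 0.05 by edgeR there were 9.

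Csa1G013250 is also named RBOHA, while its non-redundant protein name is RBOHF, the oxidase that in Arabidopsis supplies the Casparian strip and defence responses. Its values were 1.81, 1.67 and 2.48 FPKM in WT, 2.93, 3.11 and 3.66 in Csspt, 4.99, 3.89 and 3.62 in Csalc, and 5.03, 4.63 and 3.03 in the double mutant. All 9 mutant libraries were above the 3 WT libraries. With 12 libraries the double mutant was not called against WT (log2 fold change 0.97 ± 0.26, adjusted p = 0.0524 by edgeR). In the 11-library fit it rose in the double mutant (0.96 ± 0.21, adjusted p = 0.00608) and in Csalc (1.13 ± 0.23, adjusted p = 0.0241), while Csspt had 0.63 ± 0.21 (adjusted p = 0.117).

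A pair of genes with adjoining IDs shared the name RBOHH, an oxidase of the pollen tube tip in Arabidopsis. Csa6G301080 had 7.0, 6.82 and 5.73 FPKM in WT and 6.6, 5.68 and 7.55 in the double mutant, with 5.28 to 9.14 in the single mutants. These groups overlapped (log2 fold change -0.09 ± 0.25, adjusted p = 0.857 by edgeR). Its neighbour Csa6G301070 had 1.24, 1.63 and 1.19 FPKM in WT, 8.47, 1.88 and 1.81 in Csspt, 1.54, 2.04 and 5.22 in Csalc, and 15.4, 11.4 and 12 in the double mutant. Every double-mutant library was above every other library, and Csspt replicate 1 was the highest of the rest. Its log2 fold change over WT was 3.14 ± 0.61 (adjusted p = 0.0149 by edgeR). The call ended without WT replicate 1, 2 or 3 (adjusted p = 0.073, 0.0594 and 0.0734). The double mutant was also above Csalc in the 11-library fit (2.76 ± 0.62, adjusted p = 0.021), and its difference from Csspt was 1.61 ± 0.50 (adjusted p = 0.0563). Whether such copies share reads was not measured, which leaves their separate levels uncertain. The pollen marker sum was 0.593 to 0.951 FPKM in the double mutant and 0.329 to 0.645 in WT, overlapping, and its part in the rise of a gene named for a pollen tube oxidase was not tested.

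The scarcest oxidases were near the limit of detection in WT. Csa4G050170, the third gene named RBOHA, had 0.0539, 0.0788 and 0.0521 FPKM in WT, 0.184, 0.0786 and 0.314 in Csspt, 0.115, 0.499 and 0.649 in Csalc, and 1.26, 1.4 and 0.293 in the double mutant. The groups summed to 22, 65, 143 and 367 counts in that order, and double-mutant replicate 3 lay within the range of the single mutants. The log2 fold change over WT was 3.80 ± 0.77 (adjusted p = 0.017 by edgeR). That call ended without any 1 WT library (adjusted p = 0.0804, 0.0672 and 0.0809 for replicates 1 to 3) and without double-mutant replicate 1 (0.0573) or 2 (0.0571). RBOHE (Csa5G529950), an oxidase of the tapetum in Arabidopsis, had 0 counts in all WT libraries, 9 in Csspt, 14 in Csalc and 40 in the double mutant. The latter is at least 12.4-fold higher than WT at a floor of 3 counts over the group. The 11-library fit called it (adjusted p = 0.0237 by edgeR), and 12 libraries did not (adjusted p = 0.0851). RBOHB (Csa1G569450), named for a potato oxidase of the elicitor-induced burst, had 0.0299 to 0.238 FPKM over all libraries and was not called (0.21 ± 0.54, adjusted p = 0.842). The third gene named RBOHH, Csa1G495280, held 7 counts in WT, 23 in Csspt, 0 in Csalc and 25 in the double mutant and was too low to be tested with 12 libraries.

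**Figure D2:**
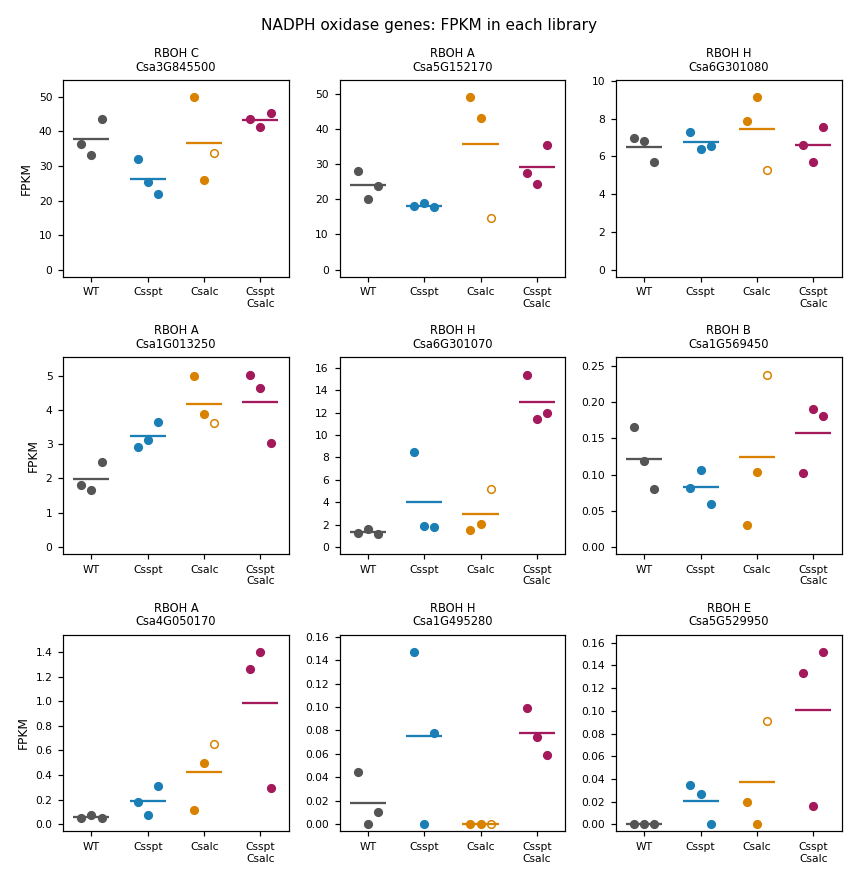
FPKM of the 9 NADPH oxidase genes (y axis, linear, own scale per gene) in each library of WT, Csspt, Csalc and the double mutant. Points are libraries, the open point is Csalc replicate 3 and lines are means of 3; Csa6G301070 reached 11.4 to 15.4 FPKM in the double mutant and at most 1.63 in WT.

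Among the peroxidases, the most abundant gene in WT was not called in any mutant against WT. Peroxidase 73 (Csa6G495000), whose Arabidopsis namesake acts in root hair growth, had 117, 70.2 and 103 FPKM in WT, 117, 96.1 and 115 in Csspt, 117, 135 and 107 in Csalc, and 117, 146 and 122 in the double mutant (log2 fold change 0.30 ± 0.22, adjusted p = 0.447 by edgeR). Peroxidase 4 (Csa6G213910) had 73.1, 60.8 and 46.6 FPKM in WT, 67.6, 102 and 96.2 in Csspt, 137, 50.9 and 1.57 in Csalc, and 54.0, 98.6 and 101 in the double mutant. The groups overlapped (0.39 ± 0.98, adjusted p = 0.84). Another gene named Peroxidase 4, Csa4G626600, followed it from library to library, at a level lower by a ratio of 4.94 to 12.2, also in Csalc replicate 3 (0.317 FPKM). Both have the non-redundant name peroxidase P7, and shared reads were not measured. Csa7G049140, at 17.5 FPKM in Csalc replicate 3, and Csa6G013940 carry that name too.

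Peroxidase 47 (Csa4G443110), named for an Arabidopsis gene of vessel lignification, had 25.4, 30.9 and 39.0 FPKM in WT, 13.8, 12.7 and 9.78 in Csspt, 15.8, 4.86 and 239 in Csalc, and 55.8, 17.5 and 28.1 in the double mutant. Every Csspt library was below every WT library, without a call (adjusted p = 0.0915 by edgeR in the 11-library fit), and Csalc replicate 3 was the highest of all. Peroxidase 4 (Csa7G049140) had 21.8 to 32.2 FPKM in WT and 18.7 to 50.9 in the double mutant. Peroxidase 17 (Csa4G026850), whose namesake acts in lignified tissue of Arabidopsis, had 22.5, 31.0 and 24.9 FPKM in WT and 16.7, 21.1 and 19.5 in the double mutant. It fell in the 11-library fit (log2 fold change -0.57 ± 0.16, adjusted p = 0.0193 by edgeR), also against Csspt (-0.61 ± 0.16, adjusted p = 0.0319).

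The peroxidase of highest level was Peroxidase 73 in each WT library, but Peroxidase 21 in replicate 1 and Peroxidase 10 in replicates 2 and 3 of the double mutant. Peroxidase 10 (Csa6G490230) had 29.4, 13.3 and 25.4 FPKM in WT, 61.2, 37.5 and 27.9 in Csspt, 20.1, 49.6 and 74.3 in Csalc, and 112, 168 and 204 in the double mutant. Every double-mutant library was above all others. The log2 fold change over WT was 2.72 ± 0.47 (adjusted p = 0.00935 by edgeR), and the call held without each library in turn, with adjusted p from 0.00118 to 0.0441. It was also above Csspt in the 11-library fit (1.89 ± 0.42, adjusted p = 0.0175) and Csalc (2.13 ± 0.50, adjusted p = 0.0235).

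Peroxidase 21 (Csa3G736970) had 26.7, 26.5 and 39.5 FPKM in WT, 73.0, 71.7 and 78.0 in Csspt, 127, 68.8 and 0.0 in Csalc, and 271, 108 and 158 in the double mutant. Apart from Csalc replicate 3, each mutant library was above each WT library. With 12 libraries the difference between double mutant and WT was 2.41 ± 1.35 on the log2 scale (adjusted p = 0.307 by edgeR). In the 11-library fit the gene rose in the double mutant (2.40 ± 0.33, adjusted p = 0.000519) and in Csalc (1.64 ± 0.35, adjusted p = 0.0277), and the double mutant was above Csspt (1.21 ± 0.32, adjusted p = 0.0308). Csspt itself had 1.19 ± 0.32 (adjusted p = 0.061).

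Peroxidase 43 (Csa7G058560) went the other way. It had 91.7, 43.4 and 56.6 FPKM in WT, 23.6, 28.0 and 31.7 in Csspt, 23.2, 39.9 and 1.13 in Csalc, and 5.41, 11 and 11.7 in the double mutant. Both single mutants lay below WT without overlap, and the double mutant lay below every Csspt library and below Csalc replicates 1 and 2. Relative to WT the log2 fold change was -2.87 ± 0.92 with 12 libraries (adjusted p = 0.0889 by edgeR) and -2.88 ± 0.36 in the 11-library fit (adjusted p = 0.000316). In the latter fit it also fell against Csspt (-1.61 ± 0.35, adjusted p = 0.015) and Csalc (-1.83 ± 0.37, adjusted p = 0.0144).

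Several peroxidases that were scarce in WT rose in the double mutant in the 11-library fit, and had their highest value in Csalc replicate 3. Peroxidase 45 (Csa3G881810) had 0.555, 0.658 and 0.485 FPKM in WT, 1.39, 1.03 and 1.05 in Csspt, 0.788, 0.949 and 146 in Csalc, and 19.6, 8.06 and 2.33 in the double mutant. Over WT its log2 fold change was 3.99 ± 1.64 with 12 libraries (adjusted p = 0.169 by edgeR) and 3.98 ± 0.62 in the 11-library fit (adjusted p = 0.00101). It was then also above Csspt (3.03 ± 0.58, adjusted p = 0.00999) and Csalc (3.39 ± 0.70, adjusted p = 0.0156).

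Peroxidase 42 (Csa1G062960) had 0.434, 0.964 and 0.41 FPKM in WT, 0.628, 0.48 and 1.84 in Csspt, 1.25, 11.6 and 55.9 in Csalc, and 3.73, 12.7 and 5.02 in the double mutant. The double mutant did not overlap WT or Csspt, but lay within the wide range of Csalc (against WT 3.42 ± 0.85 in the 11-library fit, adjusted p = 0.0107 by edgeR, and 0.0843 with 12 libraries). Another 2 genes named Peroxidase 10 shared this pattern. Their non-redundant names are peroxidase 10 isoform X1 (Csa2G235100) and isoform X2 (Csa2G235600). Whether they share reads was not measured, so they may not be 2 separate rises. Csa2G235100 had 0.372, 0.411 and 0.473 FPKM in WT, 2.03, 0.253 and 2.24 in Csspt, 0.248, 0.836 and 12.1 in Csalc, and 9.77, 5.7 and 3.18 in the double mutant. Csa2G235600 had 0.338, 0.613 and 0.485 FPKM in WT, 1.37, 0.47 and 1.35 in Csspt, 0.0, 0.669 and 9.73 in Csalc, and 5.98, 6.32 and 3.51 in the double mutant. Their log2 fold changes over WT in the 11-library fit were 3.68 ± 0.71 (adjusted p = 0.00305) and 3.27 ± 0.69 (adjusted p = 0.00465) by edgeR.

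Other peroxidases named for lignin-forming enzymes were low in all libraries. Peroxidase 66 (Csa3G179180), whose Arabidopsis namesake acts in vessel lignification, had 0.149, 0.0 and 0.0968 FPKM in WT, 0.494, 0.173 and 0.173 in Csspt, 0.0, 0.0 and 2.68 in Csalc, and 2.75, 1.69 and 2.44 in the double mutant. Csalc replicates 1 and 2 held 0 counts and the double mutant 317, at least 64.7-fold higher at a floor of 3 counts over those Csalc libraries. Over WT its log2 fold change was 4.59 ± 0.70 in the 11-library fit (adjusted p = 0.0012 by edgeR) and 4.61 ± 1.67 with 12 libraries (adjusted p = 0.126). Peroxidase 52 (Csa6G013940), named for a lignin-forming enzyme of Arabidopsis, had 0.06, 0.288 and 0.152 FPKM in WT and 1.29, 0.496 and 0.443 in the double mutant (1.88 ± 0.65, adjusted p = 0.0457). The lignin-forming anionic peroxidase (Csa5G262770), named for a tobacco enzyme, had 0.314, 0.0435 and 0.0409 FPKM in WT and 1.25, 0.65 and 0.502 in the double mutant (2.31 ± 0.73, adjusted p = 0.0308). Both values are of the 11-library fit.

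The pair named Peroxidase 72, a lignification enzyme of Arabidopsis, split: Csa4G045010 had 0.0 to 0.328 FPKM in WT and 0.604 to 1.29 in the double mutant, and Csa6G504560 had 0.386, 0.118 and 0.168 in WT and 0.0, 0.315 and 0.253 in the double mutant, which overlapped. Neither was called (adjusted p = 0.0518 and 0.807 by edgeR in the 11-library fit). Peroxidase 64 is named for the enzyme that polymerises lignin in the Casparian strip of Arabidopsis. Its gene Csa2G346020 had 0.0, 0.105 and 0.0 FPKM in WT and 0.349, 0.416 and 0.385 in the double mutant (3.01 ± 1.10, adjusted p = 0.0578), while Csa6G507230 had 0.745 to 1.08 in WT and 0.829 to 1.2 in the double mutant (0.01 ± 0.26, adjusted p = 0.99). Xylem and secondary wall markers (9 genes, none at 0) summed to 11.7 to 14.7 FPKM in WT, 10.5 to 13.9 in Csspt, 10.1, 10.4 and 19.4 in Csalc, and 17.7 to 19.3 in the double mutant. The secondary wall cellulose synthase 7 (Csa2G070320) was at 0.0576 to 0.197 FPKM in WT and 0.983 to 1.37 in the double mutant. Not every gene of the list rose. The most abundant, IRREGULAR XYLEM 15 (Csa1G050520), was at 5.74 to 9.21 FPKM in WT and 6.07 to 6.62 in the double mutant. COBRA-like protein 4 (Csa1G039860) was at 0.669 to 0.81 and 0.534 to 0.96. The part of xylem content in these peroxidase values was not tested.

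Of the remaining members called in the 11-library fit, Peroxidase 63 (Csa3G829170) had 1.2, 1.22 and 1.32 FPKM in WT, 2.57, 2.41 and 1.88 in the double mutant and 58.6 in Csalc replicate 3 (log2 fold change 0.75 ± 0.21, adjusted p = 0.0202 by edgeR). Its non-redundant name is peroxidase 31. The other gene named Peroxidase 63, Csa5G631510, was lower in the double mutant than in WT by a difference that was not called (-0.82 ± 0.45, adjusted p = 0.181). Peroxidase 51 (Csa2G406630) held 28 counts in WT, 11 in Csspt, 118 in Csalc and 0 in the double mutant. Csalc had 0.889, 1.85 and 0.0 FPKM, so its counts came from replicates 1 and 2, and replicate 3 was at 0 like the double mutant. As a group the double mutant was at least 43.1-fold lower than Csalc at a floor of 3 counts over the group. The 11-library fit called Peroxidase 51 lower in the double mutant than in WT and Csalc (adjusted p = 0.0115 and 0.00675 by edgeR). With 12 libraries neither difference was called by edgeR, and the adjusted p against WT was 0.16. DESeq2 called Peroxidase 51 against WT. It was not among the members called in the fit of the WT and double-mutant libraries alone.

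**Figure D3:**
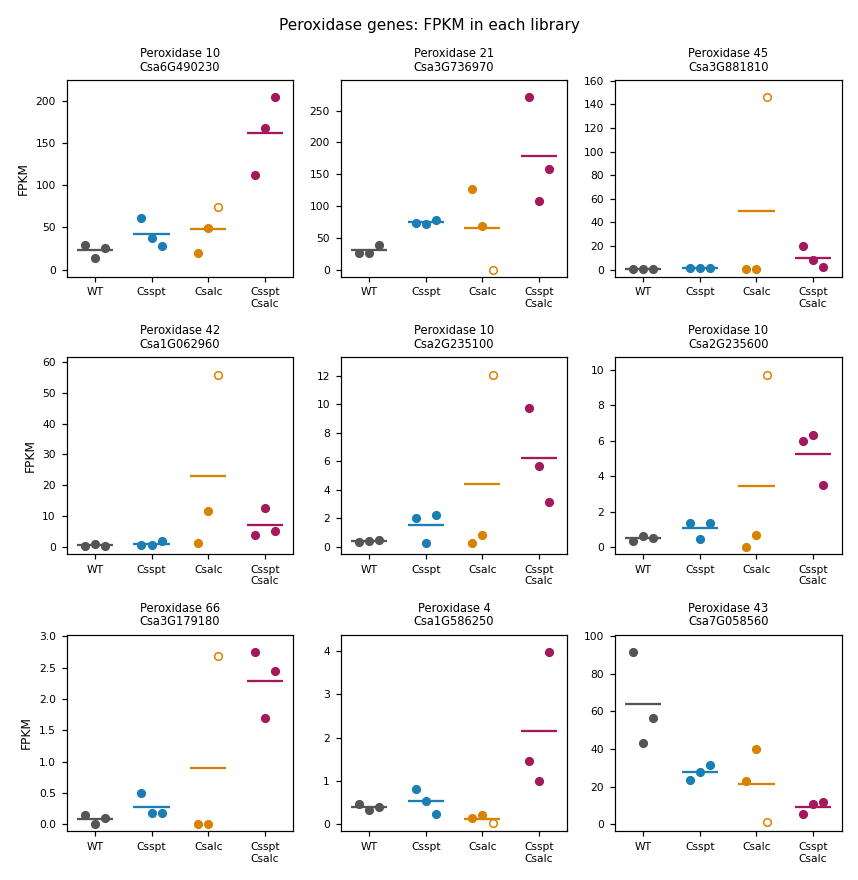
FPKM of 9 class III peroxidase genes (y axis, linear, own scale per gene) in each library of the 4 genotypes. Points are libraries, the open point is Csalc replicate 3 and lines are means of 3; Peroxidase 10 (Csa6G490230) lay at 112 to 204 FPKM in the double mutant and 13.3 to 29.4 in WT, and Peroxidase 43 at 5.41 to 11.7 against 43.4 to 91.7.

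Genes named Peroxidase 2 formed a run of IDs from Csa4G285730 to Csa4G285800, with 7 members that moved in different directions. The most abundant, Csa4G285760, had 82.8, 55.2 and 70.0 FPKM in WT, 63.5, 38.2 and 72.4 in Csspt, 31.8, 46.4 and 201 in Csalc, and 28.1, 18.4 and 12.9 in the double mutant. The double mutant was below every other library. The log2 fold change from WT was -1.93 ± 0.54 with 12 libraries (adjusted p = 0.0581 by edgeR) and -1.93 ± 0.30 in the 11-library fit (adjusted p = 0.001), where it was also below Csspt (-1.61 ± 0.30, adjusted p = 0.00889).

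Its neighbour Csa4G285730 had 2.44, 2.2 and 5.23 FPKM in WT, 7.9, 6.54 and 13.7 in Csspt, 20.7, 8.43 and 0.0636 in Csalc, and 9.57, 6.2 and 7.33 in the double mutant. Apart from Csalc replicate 3, all mutant libraries were above WT, and in the 11-library fit the gene rose in Csalc (2.12 ± 0.47, adjusted p = 0.033 by edgeR) but was not called in Csspt (1.44 ± 0.43, adjusted p = 0.0827) or the double mutant (1.10 ± 0.43, adjusted p = 0.0689). Csa4G285800, at the end of the run, had 0.0747, 0.0 and 0.368 FPKM in WT, 1.52, 0.991 and 1.02 in the double mutant and 8.7 in Csalc replicate 3, and rose in the double mutant in the 11-library fit (2.84 ± 0.85, adjusted p = 0.0246). Csa4G285740, Csa4G285750, Csa4G285770 and Csa4G285780 were not called. Csa4G285740 was highest in Csspt replicate 3, at 9.6 FPKM, against 0.224 to 0.7 in WT and 0.453 to 1.19 in the double mutant. Csalc replicate 3 was the highest library for 3 of the 7 genes and the lowest for the other 4. The share of reads common to these copies was not measured, and their separate levels are uncertain.

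**Figure D4:**
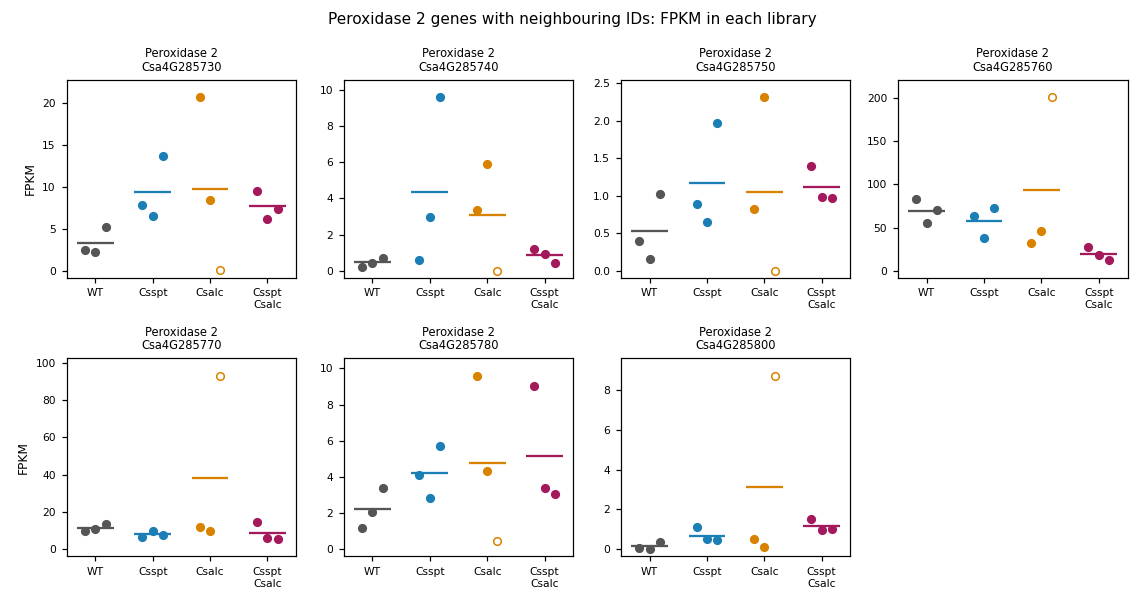
FPKM of the 7 Peroxidase 2 genes with neighbouring IDs (y axis, linear, own scale per gene) in each library of the 4 genotypes. Points are libraries, the open point is Csalc replicate 3 and lines are means of 3; Csa4G285760 lay at 12.9 to 28.1 FPKM in the double mutant against 55.2 to 82.8 in WT.

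In Csspt against WT no member was called with 12 libraries (0 of 54, 6 at an unadjusted p under 0.05), when 0.00531% of all tested genes were called up and 0.0531% down by edgeR. DESeq2 called none either (background 1.62%). Again 0 of 55 members were called in the 11-library fit (15 at an unadjusted p under 0.05), while 1.99% of all genes were called up and 2.73% down. A fit of the WT and Csspt libraries alone called 3 members (background 6.77%). In 8 members every Csspt library was above every WT library (14.8%, against 20.5% of all tested genes), and in 7 every one was below (13.0%, against 10.9%). The 7 lower members were RBOHC, RBOHA Csa5G152170, Peroxidase 47, Peroxidase 43, Peroxidase 15, Peroxidase 63 Csa5G631510 and Peroxidase N1. The 8 higher were RBOHA Csa1G013250, RBOHH Csa6G301070, Peroxidase 21, Peroxidase 45, Peroxidase 66, Peroxidase 63 Csa3G829170, and Csa4G285730 and Csa4G285800 of the Peroxidase 2 run.

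In Csalc against WT no member was called with 12 libraries (10 at an unadjusted p under 0.05), against a background of 0.159% up and 0.626% down by edgeR. DESeq2 called 5 (background 7.89%). In the 11-library fit 4 of 55 members (7.27%) rose and none fell by edgeR, against 1.79% and 2.57% of all tested genes. These were the RBOHA genes Csa5G152170 and Csa1G013250, Peroxidase 21 and Csa4G285730 of the Peroxidase 2 run, so 2 of the 9 NADPH oxidases were among them. Csalc then rests on 2 libraries. The library left out was the lowest of 12 for Csa5G152170 (14.6 FPKM), Peroxidase 21 (0.0) and Csa4G285730 (0.0636). These rises were thus seen only without it. For Csa1G013250 that library had 3.62 FPKM, above WT. In Csalc replicate 3 itself, 18 of the 47 peroxidases had their highest value of the 12 libraries (38.3%, against 46.7% of all tested genes) and 17 their lowest (36.2%, against 23.8%).

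Against Csspt, the double mutant had no called member with 12 libraries (background 0.117% up and 0.244% down by edgeR), and DESeq2 called 2 (background 4.21%). At an unadjusted p under 0.05 by edgeR there were 7. In the 11-library fit 9 members rose (16.4%, background 7.82%) and 3 fell (5.45%, background 6.59%) by edgeR. Those that fell were Peroxidase 43, Csa4G285760 and Peroxidase 17. Among those that rose were Peroxidase 45, Peroxidase 66 (log2 fold change 2.93 ± 0.61, adjusted p = 0.015), Peroxidase 42 (2.82 ± 0.81, adjusted p = 0.044) and the scarce RBOHA Csa4G050170 (2.26 ± 0.66, adjusted p = 0.0457). Csspt replicate 1 was the highest of the 3 Csspt libraries in 9 of the 16 members that rose in the double mutant over WT (56.2%), in 44.2% of all genes that did so, and in 35.5% of all tested genes.

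Against Csalc, 1 member rose with 12 libraries (1.85%, background 0.462% up and 0.249% down), and DESeq2 called 5 (background 4.8%). Peroxidase 4 (Csa1G586250) had 0.478, 0.337 and 0.411 FPKM in WT, 0.805, 0.544 and 0.239 in Csspt, 0.137, 0.226 and 0.0385 in Csalc, and 1.47, 0.991 and 3.98 in the double mutant. Csalc lay below WT and the double mutant above all other libraries. The log2 fold change over Csalc was 3.89 ± 0.73 (adjusted p = 0.0471 by edgeR) and 3.43 ± 0.74 in the 11-library fit (adjusted p = 0.0183). Of the fits without 1 library the call held only without Csspt replicate 1 or Csalc replicate 3, and it ended without each other library, at adjusted p from 0.0592 to 0.122. The 11-library fit had 7 members up (12.7%, background 6.24%) and 3 down (5.45%, background 4.94%), and those that fell were Peroxidase 43, RBOHA Csa5G152170 and Peroxidase 51.

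Of the 57 members, 54 passed the filter on low counts with 12 libraries. Peroxidase 25 (Csa1G338920) and Peroxidase 51 (Csa2G271470) failed it, as did RBOHH Csa1G495280. Peroxidase 25 had 0 counts in the double mutant and 28 in WT, and reached 1.23 FPKM in 1 library, Csalc replicate 3. In all, 13 members, 10 of them peroxidases, stayed under 1 FPKM in every library. Between the double mutant and WT, 35 tested members were called in neither fit, 29 of them peroxidases and 5 NADPH oxidases, with log2 fold changes from -1.37 to 3.01 in the 11-library fit. They included Peroxidase 19 (Csa1G077120), at 5.1, 4.01 and 5.04 FPKM in WT and 12.2, 7.91 and 2.78 in the double mutant, and Peroxidase 15 (Csa5G167220), at 5.45, 8.04 and 6.13 in WT and 3.39, 6.14 and 6.18 in the double mutant. These values overlapped. Peroxidase 40 (Csa6G326930), whose Arabidopsis namesake acts in the tapetum, stayed between 0.285 and 0.754 FPKM in all libraries. Peroxidase 39 (Csa2G421020), named for a gene of root growth in Arabidopsis, lay between 0.403 and 1.29 FPKM in 11 libraries and at 16.5 in Csalc replicate 3. Peroxidase N1 (Csa7G061710) had 1.1, 1.41 and 3.63 FPKM in WT and 0.833, 0.438 and 0.557 in Csspt, lower without overlap and without a call (log2 fold change -1.77 ± 0.48, adjusted p = 0.0624 by edgeR in the 11-library fit). OCP3, a defence regulator of Arabidopsis, had 2.79, 1.65 and 2.55 FPKM in WT and 2.49, 2.73 and 2.88 in the double mutant (log2 fold change 0.10 ± 0.38, adjusted p = 0.897 by edgeR).

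Enzymes that use or remove the same oxygen species were described by lists of names. In the double mutant against WT with 12 libraries, 1 of 5 tested ascorbate peroxidases rose, as did 1 of 12 glutathione peroxidases and peroxiredoxins and 3 of 18 genes of ascorbate recycling and oxidation, and none of these fell, against 3.77% of all tested genes up and 3.41% down. Superoxide dismutases, which turn superoxide into hydrogen peroxide, split, with 1 of 8 up and 1 down, and 0 of 3 catalases were called (0 at an unadjusted p under 0.05, and 0 in the 11-library fit by edgeR). Medians of the log2 fold change were 0.65, 0.54, 0.21, 0.04 and 0.14 in that order, against 0.03 over all tested genes. Numbers up and down in the 11-library fit were 3 and 0, 8 and 1, 8 and 3, 2 and 3, and 0 and 0, against the background of 19.2% up and 16.8% down.

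Monodehydroascorbate reductase 3 (Csa3G099720), which returns oxidised ascorbate to its reduced form, had 3.61, 5.11 and 4.59 FPKM in WT, 25.8, 5.49 and 6.18 in Csspt, 6.66, 5.75 and 10.3 in Csalc, and 60.7, 34.0 and 39.0 in the double mutant. Every double-mutant library was above all others, and Csspt replicate 1 was the next (log2 fold change over WT 3.21 ± 0.56, adjusted p = 0.00935 by edgeR). Ascorbate peroxidase 3 (Csa6G507100), which reduces hydrogen peroxide with ascorbate, had 1.31, 1.36 and 2.45 FPKM in WT, 11.9, 2.74 and 2.07 in Csspt, 2.78, 2.7 and 10.7 in Csalc, and 32.2, 18 and 20.4 in the double mutant (3.66 ± 0.73, adjusted p = 0.0166). Both shared the high Csspt replicate 1 with RBOHH Csa6G301070. Phloem markers (16 genes, none at 0) summed to 119 to 148 FPKM in WT, 149.8 to 166 in Csspt, 124, 136 and 237 in Csalc, and 171 to 225 in the double mutant, above WT without overlap. Of these, SIEVE ELEMENT OCCLUSION B (Csa2G199900), a protein of sieve tubes, had 4.83, 5.93 and 2.35 FPKM in WT, 18.2, 3.12 and 3.57 in Csspt, 2.45, 5.13 and 23.5 in Csalc, and 42.3, 30.5 and 29.1 in the double mutant. It too was high in Csspt replicate 1, and the part of phloem content in the values of these 3 genes was not tested. Not every phloem marker rose. The most abundant, PHLOEM PROTEIN 2-LIKE A9 (Csa1G709160), had 76.5 to 95.8 FPKM in WT and 74.6 to 95.1 in the double mutant. PHLOEM PROTEIN 2-LIKE A10 (Csa4G644650) had 18.5 to 20.0 and 16.5 to 18.7. Both overlapped. The chloroplast peroxiredoxin 2E (Csa3G748800) rose by 1.52 ± 0.31 (adjusted p = 0.0178), a chloroplast superoxide dismutase (Csa6G148290) rose by 0.75 ± 0.18 (adjusted p = 0.034), and superoxide dismutase 2 (Csa4G192040) had -0.75 ± 0.15 (adjusted p = 0.0166). Green tissue markers (18 genes, none at 0) summed to 1442 to 1667 FPKM in WT and 1643 to 2149 in Csspt. They summed to 2127, 2271 and 242 in Csalc and 2785 to 3389 in the double mutant. Their part in the changes of chloroplast enzymes was not tested.

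Another source of hydrogen peroxide in the wall is the oxidation of amines. Of 11 tested amine and polyamine oxidases 1 rose with 12 libraries (3 up and 3 down in the 11-library fit, median 0.01): the primary amine oxidase Csa6G423470, at 0.341, 1.18 and 1.36 FPKM in WT and 14.4, 16.9 and 10.3 in the double mutant (3.72 ± 0.67, adjusted p = 0.0102 by edgeR). All tested genes were called at 3.77% up and 3.41% down with 12 libraries, and at 19.2% up and 16.8% down in the 11-library fit. Among germin-like proteins, some of which are oxalate oxidases, 1 of 12 rose (3 up and 1 down of 13 in the 11-library fit, median 0.38), and the pattern also caught 1 gene named ALTERED SEED GERMINATION 2, which is no germin. None of 4 ferric reduction oxidases, related to RBOHs in their membrane domain, was called with 12 libraries (1 at an unadjusted p under 0.05), and 1 rose and 1 fell in the 11-library fit.

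Laccases, which oxidise monolignols with oxygen in place of hydrogen peroxide, had 1 of 9 tested genes up (4 in the 11-library fit), none down and a median of 1.21, against 0.03 over all tested genes. The shares of all tested genes were 3.77% up and 3.41% down, and 19.2% and 16.8% in the 11-library fit. Laccase-3 (Csa1G533470) had 0.994, 1.41 and 0.539 FPKM in WT and 6.17, 7.12 and 4.17 in the double mutant (log2 fold change 2.44 ± 0.53, adjusted p = 0.0222 by edgeR). Casparian strip and dirigent proteins, the scaffold at which peroxidases and an RBOH meet in the endodermis and proteins that guide phenolic coupling, had 4 of 35 up (11.4%) and 1 down (2.86%), with a median of 0.22. Without Csalc replicate 3, 9 of 36 rose (25.0%) and 5 fell (13.9%). Casparian strip membrane protein 2 (Csa3G777660) had 0.198, 0.38 and 0.253 FPKM in WT and 3.17, 2.87 and 2.17 in the double mutant (3.15 ± 0.68, adjusted p = 0.0222). Casparian strip membrane protein 3 (Csa5G636650) had 0.626 to 1.06 FPKM in WT and 0.239 to 0.727 in the double mutant, and both genes named Casparian strip membrane protein 1 were at 0 throughout. Dirigent protein 20 (Csa4G280630) had 5.28, 3.38 and 5.36 FPKM in WT, 15.4, 15.2 and 27.8 in Csalc and 27.9, 16.8 and 27.1 in the double mutant (2.24 ± 0.31, adjusted p = 0.00316). CASP-like protein 5A2 (Csa6G141370) was the gene that fell, from 66.3 to 74.1 FPKM in WT to 21.4 to 28.4 in the double mutant (-1.59 ± 0.18, adjusted p = 0.00134), and is named here with its value known.

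Among regulators of RBOH activity, calls with 12 libraries were near or below the shares of all tested genes, 3.77% up and 3.41% down. Of 50 tested calcium-dependent kinases, calcineurin B-like proteins and their kinases, 2 rose (4.0%) and 1 fell (2.0%), with a median of -0.04. There were 8 up (16%) and 14 down (28%) in the 11-library fit, against 19.2% and 16.8% of all tested genes. Calcium-dependent protein kinase 29 (Csa3G874390) had 21.1, 19.8 and 21.0 FPKM in WT and 45.3, 37.3 and 33.8 in the double mutant (0.80 ± 0.15, adjusted p = 0.0136 by edgeR). Kinase 21 (Csa6G513780) rose by 0.79 ± 0.14 (adjusted p = 0.00974) and kinase 20 (Csa3G785400) had -1.30 ± 0.29 (adjusted p = 0.0243). Of 17 ROP GTPases and their exchange factors 0 were called with 12 libraries (5 at an unadjusted p under 0.05), with a median of 0.47 against 0.03 over all tested genes. Without Csalc replicate 3, 7 rose (41.2%) and 3 fell (17.6%), against the same 19.2% and 16.8%. Of 17 genes chosen by the naming rule from these lists, the calls of 4 held without each library in turn: monodehydroascorbate reductase (Csa3G775240), the amine oxidase, Dirigent protein 20 (Csa4G280630) and kinase 21. The other 13 lost theirs without at least 1 library, at adjusted p from 0.0509 to 0.145. All 13 lost it without WT replicate 1, 12 without WT replicate 3, 12 without double-mutant replicate 1 and 10 without WT replicate 2.

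**Figure D5:**
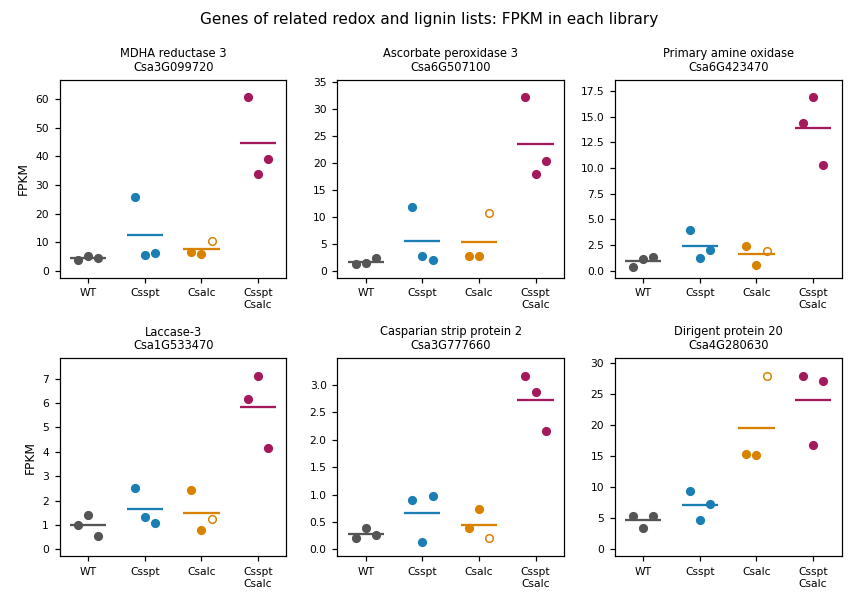
FPKM of 6 genes from the related redox and lignin lists (y axis, linear, own scale per gene) in each library of the 4 genotypes. Points are libraries, the open point is Csalc replicate 3 and lines are means of 3; MDHA reductase 3 is monodehydroascorbate reductase 3, at 34.0 to 60.7 FPKM in the double mutant and 3.61 to 5.11 in WT.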

How the data were processed

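RNA was extracted with Trizol and libraries were made with a NEBNext Ultra kit, per the labels' protocols. HISAT2, HISAT and DESeq2 are named in the submitters' processing notes. Versions, genome build, annotation and strand setting are not given in these sources. The authors deposited 1 table of 24345 genes with whole-number read counts per gene, and FPKM values, which scale for transcript length and library depth, per the file headers. The heading DM was taken to mean the double mutant. Depth was 32155631 to 37986853 counts per library. No gene ID matched the RefSeq table, so names are those of the deposited annotation, which are best matches in other species, and no sequence or coordinate is given.

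The test on counts used edgeR 4.0.16 under R 4.3.3 (filterByExpr with a minimum count of 10, TMM, glmQLFit and glmQLFTest, 4 groups of 12 libraries in 1 fit, no block) over 18850 genes, or 19060 without Csalc replicate 3, with Benjamini-Hochberg adjustment per comparison and a threshold of 0.05. SE was taken as the absolute log2 fold change over the square root of F. FPKM values are shown and were not tested. Bounds use a floor of 3 counts over the group and cover counting error only. The fit was tested on simulated counts. Replicates differed by more than sampling noise (lowest ratio of chi-square to degrees of freedom 13.6), and each was kept as its own sample. Whether replicates came from separate plants is not stated, so p-values measure the spread between these libraries. The members and gene lists were chosen with earlier results of these data known. Named were all NADPH oxidases, called peroxidases, the 6 peroxidases of highest WT level, members at 0 in a group and at 50 or more counts in another, and up to 4 called genes per list with a mean of at least 1 FPKM. Further members are named with their values known. Alternatives were RLE scaling, no filter, DESeq2 1.42.0, a fit of the compared groups, a replicate block and each library left out.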

Additional observations from a re-analysis of the deposited data

How the results depend on the processing

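Counts of called members depended on the shared spread. RLE scaling kept every count of calls, and so did leaving out the low-count filter, except that the double mutant against Csalc went from 1 to 0. DESeq2 called 5 members in Csalc against WT, 13 in the double mutant against WT, 2 against Csspt, 5 against Csalc, and 2 between the single mutants. A fit of only the 2 groups compared called 3 in Csspt against WT, 20 in the double mutant against WT, 10 against Csspt and 0 against Csalc. For the counts against Csspt and Csalc in that fit, the share of all tested genes is not given. With each library left out in turn the counts ran from 1 to 20 in the double mutant against WT, 0 to 12 against Csspt, 0 to 10 against Csalc, 0 to 5 in Csalc against WT, 0 to 1 between the single mutants and 0 to 0 in Csspt against WT. In the double mutant against WT 1 member stayed called without WT replicate 1, 2 or 3, 2 without double-mutant replicate 1 or 2, 8 without Csalc replicate 1 and 20 without Csalc replicate 3, which lowered the common coefficient of variation from 0.363 to 0.193. The cause of the other shifts was not tested. Except without Csalc replicate 3, the share of all tested genes called is not given for the fits without 1 library. Their counts are therefore not read as particular to the members. Same-numbered replicates did not deviate together (2 of 18 pairs with r over 0.1, r from -0.252 to 0.208). No pairing by number was thus seen, but with 3 libraries per group this check cannot exclude it. With the replicate block the double mutant against Csalc gave 0 calls and the double mutant against WT 3. Of 59 fold changes of members recomputed under every alternative that tested them (54 for double mutant over WT, 5 for other comparisons), 14 changed sign when 1 library was left out, none of them called with or without it. Peroxidase 47, RBOHC and RBOHA Csa5G152170 were among these 14. None of the 17 genes named from the related lists changed sign. At these depths members at a few counts, such as RBOHE and Peroxidase 25, allow bounds only.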
